A study of Mus musculus with 5 samples.

Results

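The CD28 and TIGIT family receptors are surface proteins of T cells that add to or restrain the signal from the antigen receptor. Those examined here were Ctla4, Cd28, Icos, Pdcd1, Btla, Tigit, Cd226 and Cd96, together with the inhibitory receptors Lag3 and Havcr2. These 10 genes were chosen by name among the 24417 genes with a symbol in the count table, and all 10 passed the filter on low counts that left 14164 genes to test. Reporter-null cells (3 libraries) were taken as positive for Thy1.1, the surface marker that reports the Foxp3 allele with a STOP cassette between loxP sites. Treg cells (2 libraries) were taken as positive for Foxp3-DTR-GFP, an allele that marks cells with a diphtheria toxin receptor fused to green fluorescent protein. All 5 libraries came from the colon lamina propria of mice labelled with the same strain, which joins the allele Foxp3DTR-GFP to the allele loxp-Thy1.1-STOP-loxp-GFP, and the labels name no treatment and no age. The description of the first reporter-null library names 2 numbers, 1 and 4. The labels do not say that libraries came from separate animals, so the spread behind each p-value may be technical.

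Foxp3 is the transcription factor of regulatory T (Treg) cells, and cells of the reporter-null kind switch the locus on without making the protein. CTLA-4 and CD28 compete for CD80 and CD86 on antigen-presenting cells, CD28 to co-stimulate and CTLA-4 to take the ligands away, and CTLA-4 is central to suppression by Treg cells. TIGIT, CD226 and CD96 likewise bind CD155 and related nectins, TIGIT as an inhibitor and CD226 as a co-stimulator. ICOS, PD-1 (Pdcd1) and BTLA bind ICOS ligand, the PD-1 ligands and HVEM, while LAG-3 and TIM-3 (Havcr2) bind MHC class II and galectin-9 among other ligands.

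Of the 10 receptor genes, Tigit and Icos fell and Cd226 rose in reporter-null cells, while the other 7 did not pass the threshold, Ctla4 among them. Levels are in CPM, counts relative to the TMM-scaled library total, and log2 fold changes set reporter-null over Treg cells, each with a standard error (SE). Adjusted p-values are from the quasi-likelihood test of edgeR with Benjamini-Hochberg adjustment over all genes tested, with a threshold of 0.05. The 3 receptors called (1 higher, 2 lower) stand beside 8.79% of all genes tested that were called, with 4.07% higher and 4.72% lower. The median log2 fold change of the 10 was -0.026, against 0.018 over all genes tested. Bulk RNA does not tell fewer expressing cells from less RNA per cell.

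The labels and the cells were checked first. Foxp3 stood at 75.7, 80.7 and 81.3 CPM in the reporter-null libraries, against 764 and 770.0 CPM in the Treg libraries (adjusted p = 5.45e-05). Thy1, which the reporter also encodes, stood at 269.9, 269.3 and 300.5 CPM in the reporter-null libraries, against 18.8 and 21.4 CPM in the Treg libraries (adjusted p = 8.48e-05). Total counts ran from 19011118 to 22395169 in the reporter-null group and were 17670420 and 22245610 in the Treg group. The T cell gene Cd3e was at 1039.9 to 1260.2 CPM in reporter-null and 1036 to 1070.2 CPM in Treg libraries, and the CD8 gene Cd8a was under 1 CPM in all 5. The other CD8 gene, Cd8b1, was at 5.42, 3.41 and 7.34 CPM in the reporter-null libraries, against 11.6 and 11.1 CPM in the Treg libraries, without overlap (-1.08 on the log2 scale, adjusted p = 0.118). Of 8 CD4 T cell markers tested, 1 rose and 1 fell. Cd4 rose to 1391 CPM on average in reporter-null cells, against 701 CPM in Treg cells (0.99 on the log2 scale, adjusted p = 0.00796), a call lost with Treg replicate 1 (0.11) or Treg replicate 2 (0.0827) left out. Cd2, an adhesion receptor of T cells, fell to 455 CPM in reporter-null cells, against 1174 CPM in Treg cells (-1.37, adjusted p = 0.00186). Reporter-null replicate 2 and Treg replicate 1 stood apart within their groups. Their epithelial markers (10 genes) summed to 1305 CPM in reporter-null replicate 2, with 36.8 and 41.2 CPM in the other reporter-null libraries, and to 279 CPM in Treg replicate 1, with 50.5 CPM in Treg replicate 2. Both also had the lowest sums of dissociation and immediate early genes (10 genes) in their group. These were 24042 CPM in reporter-null replicate 2, with 55392 and 47188 CPM in replicates 1 and 3, and 15440 CPM in Treg replicate 1, with 50748 CPM in Treg replicate 2. Hspa1a and Hspa1b, genes for heat shock proteins, differed most in CPM. Hspa1b was at 3581 CPM in reporter-null replicate 2, with 19197 and 15418 CPM in replicates 1 and 3. It was at 2423 CPM in Treg replicate 1, with 18692 CPM in Treg replicate 2. In reporter-null replicate 2, Fos, Jun, Egr1 and Atf3 were lowest of their group, while Fosb, Junb and Ier2 were highest. In Treg replicate 1 each of these genes was below Treg replicate 2. Between the groups, 1 of the 10 genes was called higher in reporter-null cells and 0 lower, with a median log2 fold change of 0.49. The gene called was Fosb, at 776 CPM on average in reporter-null cells, against 373 CPM in Treg cells (edgeR adjusted p = 0.0184).

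The promoters of Tigit, the receptor with the smallest p, and of Ctla4, the most abundant of those not called, are shown to give the sequence context of the contrast. RefSeq (GRCm38.p6) promoter windows were searched for 6 of the receptors, and the called receptors Icos and Cd226 were not among them. The 250 bases before the annotated start are printed 5′ to 3′ on the gene's strand, for Tigit at chr16:43664185-43664434 on the minus strand and for Ctla4 at chr1:60908775-60909024 on the plus strand. Capitals mark matches, on either strand, to the letters GTAAACA (forkhead), TGGAAA (NFAT), TGANTCA (AP-1), TGTGGT (RUNX) and TTCNNNGAA (STAT).
Tigit promoter: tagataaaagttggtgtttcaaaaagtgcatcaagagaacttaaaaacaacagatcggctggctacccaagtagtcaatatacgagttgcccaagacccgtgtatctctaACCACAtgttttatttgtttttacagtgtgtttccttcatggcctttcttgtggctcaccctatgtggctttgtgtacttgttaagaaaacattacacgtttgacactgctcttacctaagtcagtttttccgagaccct
Ctla4 promoter: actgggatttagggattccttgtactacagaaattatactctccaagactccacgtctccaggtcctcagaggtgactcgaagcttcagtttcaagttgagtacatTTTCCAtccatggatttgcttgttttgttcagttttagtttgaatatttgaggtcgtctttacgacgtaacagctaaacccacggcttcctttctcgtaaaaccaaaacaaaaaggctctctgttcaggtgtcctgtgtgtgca
The Tigit window held 1 RUNX match, 140 to 135 bases before the start, and the Ctla4 window held 1 NFAT match, 144 to 139 bases before it. Of 32851 promoter windows of this length, 14% held the RUNX letters, 18.6% the NFAT letters, 6.75% the AP-1 letters, 7.02% the STAT letters and 3.17% the forkhead letters. Among the other 4 receptors searched, Cd96 held an NFAT, a RUNX and a STAT match, Havcr2 an AP-1 and a RUNX match, Btla a RUNX match and Pdcd1 none of the 5. The forkhead letters were in 0 of the 6 windows.

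Tigit, the inhibitory receptor for CD155, fell to well under its Treg level in every reporter-null library. It stood at 135, 171 and 130.4 CPM in the reporter-null libraries, against 372 and 354 CPM in the Treg libraries. The groups did not overlap, and the highest reporter-null library, replicate 2, was still below the lower Treg library. The means were 146 ± 22.4 CPM in reporter-null cells (SD, n = 3) and 363 ± 12.5 CPM in Treg cells (SD, n = 2), a 2.49-fold lower level (log2 fold change -1.32, SE 0.145, adjusted p = 0.00308). The call remained with each library left out in turn, with log2 fold changes of -1.46 to -1.24 and a highest adjusted p of 0.0464. Over all 14 alternatives tried, it passed in 13, and the adjusted p ran from 1.03e-13 to 0.0861.

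Cd226, which encodes the co-stimulatory receptor DNAM-1 for the same ligand, moved the other way. It stood at 122, 113 and 163 CPM in the reporter-null libraries, against 49.4 and 52.0 CPM in the Treg libraries. Every reporter-null library was above both Treg libraries, and the highest was replicate 3. The means were 133 ± 26.3 CPM in reporter-null cells (SD, n = 3) and 50.7 ± 1.81 CPM in Treg cells (SD, n = 2), a 2.62-fold higher level (log2 fold change 1.39, SE 0.180, adjusted p = 0.00558). Adjusted p missed the threshold with either Treg library left out (0.0828 for replicate 1, 0.0672 for replicate 2). Over 14 alternatives it ran from 2.69e-11 to 0.0828, and the log2 fold change from 1.22 to 1.48.

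Cd96, the third receptor for CD155 and its relatives, was not called. It stood at 149, 124 and 167 CPM in the reporter-null libraries, against 117 and 139.7 CPM in the Treg libraries, and the groups overlapped. Its log2 fold change was 0.19 (SE 0.161, 95% interval -0.19 to 0.57, adjusted p = 0.567).

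**Figure D1:**
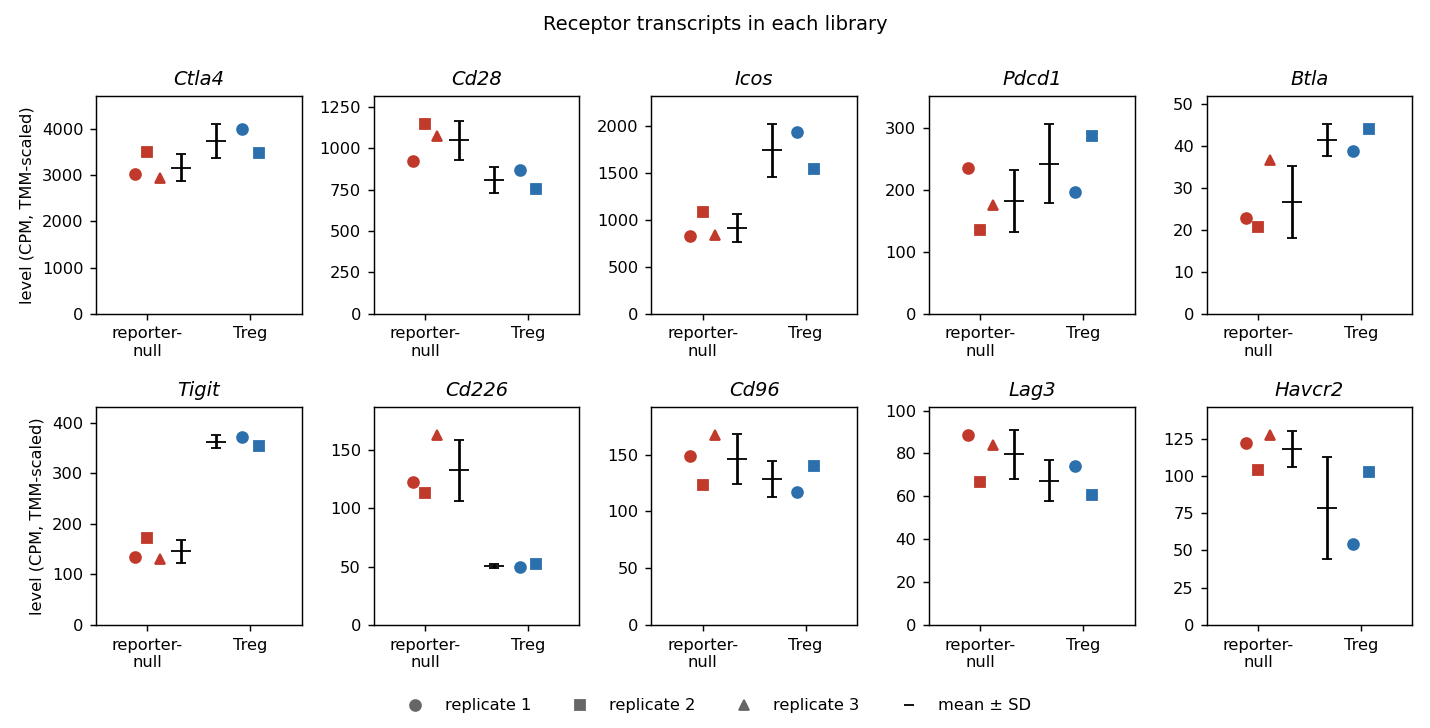
Level of each receptor transcript (vertical axis, CPM after TMM scaling, from 0) in the 3 reporter-null and 2 Treg libraries, with symbols for replicates and bars for mean ± SD. Tigit and Icos lie lower and Cd226 higher in every reporter-null library, while the groups overlap for Ctla4, Pdcd1, Cd96 and Lag3.

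Within a library, the ratio of 2 genes' counts does not depend on scaling, and of 4 such ratios Tigit over Cd226 differed most. The Tigit over Cd226 ratio was 1.10, 1.51 and 0.802 in the reporter-null libraries, against 7.52 and 6.81 in the Treg libraries. Treg libraries thus held many more Tigit than Cd226 counts, and reporter-null libraries held similar numbers. The mean log2 ratio was 0.14 ± 0.457 in reporter-null cells (SD, n = 3) and 2.84 ± 0.101 in Treg cells (SD, n = 2), a difference of -2.70, or 6.49-fold. The Cd96 over Cd226 ratio was 1.22, 1.09 and 1.03 in the reporter-null libraries, against 2.37 and 2.69 in the Treg libraries. The groups did not overlap in either ratio. A two-sided exact permutation test of 3 libraries against 2 cannot go below p = 0.2, and each of the 4 ratios computed gave this value (adjusted p = 0.2).

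Some of these receptors are also genes of natural killer cells, so that cell type's markers are given here. The 8 markers summed to 8.81 to 13.3 CPM in reporter-null libraries and 73.5 to 91.4 CPM in Treg libraries. Most of the Treg sum was the granzyme gene Gzma, which fell to 5.15, 6.38 and 3.74 CPM in the reporter-null libraries, against 83.2 and 61.5 CPM in the Treg libraries (log2 fold change -3.83, adjusted p = 0.000653). Of the receptor genes on the list, Klrb1c stood at 3.79, 4.66 and 3.92 CPM in the reporter-null libraries, against 5.81 and 9.62 CPM in the Treg libraries, without overlap (-0.90, adjusted p = 0.163). Ncr1 was at 0.596 to 1.30 CPM in reporter-null and 0.869 to 1.34 CPM in Treg libraries, and Klra8, Klra4 and Klra7 had no count in any library. The part of natural killer cell transcripts in the receptor values was not tested.

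Icos, the inducible co-stimulator that colonic Treg cells express strongly, fell in reporter-null cells. It stood at 826, 1087 and 836 CPM in the reporter-null libraries, against 1936 and 1539 CPM in the Treg libraries. The groups did not overlap, and reporter-null replicate 2 was the highest of its group. The means were 916 ± 148 CPM in reporter-null cells (SD, n = 3) and 1738 ± 281 CPM in Treg cells (SD, n = 2), a 1.90-fold lower level (log2 fold change -0.92, SE 0.178, adjusted p = 0.0244). Adjusted p missed the threshold with Treg replicate 1 left out (0.198), with Treg replicate 2 (0.0805), with reporter-null replicate 1 (0.113) and with reporter-null replicate 3 (0.063). Over 14 alternatives it ran from 1.33e-05 to 0.229, and the log2 fold change from -1.08 to -0.75.

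Cd28, the prototype co-stimulatory receptor, did not pass after adjustment. It stood at 920.2, 1145 and 1073 CPM in the reporter-null libraries, against 865 and 753 CPM in the Treg libraries. Each reporter-null library was above both Treg libraries, by a small margin for replicate 1. The log2 fold change was 0.37 (SE 0.146, 95% interval 0.022 to 0.72, adjusted p = 0.194).

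Ctla4, the inhibitor that shares ligands with Cd28, was the most abundant receptor transcript in both groups and was not called. It stood at 3032, 3488 and 2943 CPM in the reporter-null libraries, against 3994 and 3474 CPM in the Treg libraries. Reporter-null replicate 2 lay above Treg replicate 2, so the groups overlapped. The log2 fold change was -0.24 (SE 0.153, adjusted p = 0.418), with a 95% interval of -0.61 to 0.12. Within libraries, the Ctla4 over Cd28 ratio was 3.30, 3.05 and 2.74 in reporter-null cells, against 4.62 and 4.61 in Treg cells, without overlap. Cd28, Ctla4 and Icos follow each other on chromosome 1 in the RefSeq annotation, with no other protein-coding gene between them. Of these 3 neighbours, Icos alone was called. The ratio of Icos to Cd28, the genes at either end of the cluster, was 0.898, 0.949 and 0.779 in reporter-null cells, against 2.24 and 2.04 in Treg cells, a 2.45-fold lower ratio.

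**Figure D2:**
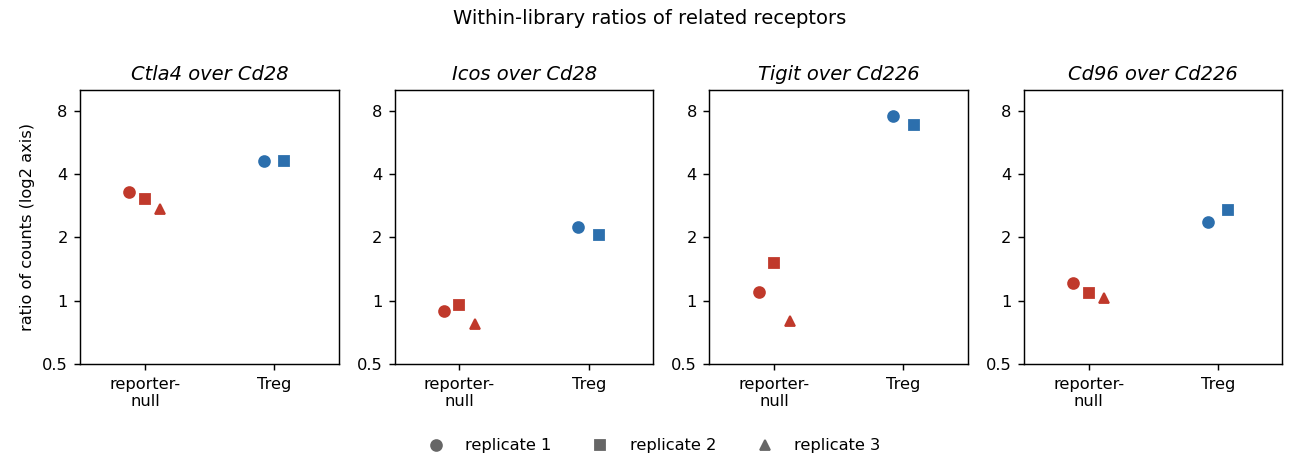
Ratio of raw counts of 2 receptors within each library (vertical axis, log2 scale) in the 3 reporter-null and 2 Treg libraries. In all 4 panels every reporter-null library lies below both Treg libraries, with the widest gap for Tigit over Cd226.

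Pdcd1, which encodes PD-1, was not called and varied within both groups. It stood at 235, 136 and 175 CPM in the reporter-null libraries, against 197 and 288 CPM in the Treg libraries, with overlap (log2 fold change -0.41, SE 0.270, adjusted p = 0.446). Its 95% interval ran from -1.08 to 0.25. Leaving out Treg replicate 1 gave a log2 fold change of -0.66, and leaving out Treg replicate 2 gave -0.11. The value was -0.64 with reporter-null replicate 1 left out and -0.25 with replicate 2 of that group left out.

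Btla, the inhibitory receptor for HVEM, was the scarcest receptor in CPM and was not called. It stood at 22.9, 20.6 and 36.6 CPM in the reporter-null libraries, against 38.8 and 44.2 CPM in the Treg libraries. All reporter-null libraries were lower, with replicate 3 close to the Treg level. The log2 fold change was -0.63 (SE 0.258, 95% interval -1.25 to -0.016, adjusted p = 0.211). It passed without reporter-null replicate 3 (-0.93, adjusted p = 0.0249), within a range of 0.0249 to 0.532 over 14 alternatives. B cells express Btla too, and their marker Ms4a1 was at 0 to 2.45 CPM in reporter-null and 0.139 to 2.61 CPM in Treg libraries. Cd79b, which encodes a chain of the B cell receptor, fell, the direction in which Btla also lay, with 7.42, 7.10 and 6.81 CPM in the reporter-null libraries, against 20.4 and 19.2 CPM in the Treg libraries (log2 fold change -1.47, adjusted p = 0.0046, or 0.0588 without Treg replicate 1). Its partner Cd79a stood at 5.47, 15.3 and 5.70 CPM in the reporter-null libraries, against 15.4 and 3.33 CPM in the Treg libraries, with overlap. The 8 B and plasma cell markers in the table summed to 394 to 906 CPM in reporter-null and to 429 and 1436 CPM in Treg libraries, mostly Jchain. The part of B cell transcripts in the Btla values was not tested.

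Lag3, a CD4-related inhibitory receptor, overlapped between the groups. It stood at 88.5, 66.5 and 83.8 CPM in the reporter-null libraries, against 74.0 and 60.5 CPM in the Treg libraries (log2 fold change 0.24, SE 0.165, 95% interval -0.15 to 0.64, adjusted p = 0.459).

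Havcr2, which encodes TIM-3, differed most between the replicates of a group. It stood at 122, 104.2 and 127 CPM in the reporter-null libraries, against 54.5 and 102.5 CPM in the Treg libraries. The lowest reporter-null library was just above the higher Treg library. The log2 fold change was 0.58 (SE 0.274, 95% interval -0.087 to 1.26, adjusted p = 0.284), and it was 0.20 without Treg replicate 1 and 1.12 without Treg replicate 2. Macrophages also express Havcr2. Their 10 markers summed to 24.1 to 106 CPM in reporter-null libraries and to 52.8 and 17.8 CPM in Treg replicates 1 and 2. The part of macrophage transcripts in the Havcr2 values was not tested.

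**Figure D3:**
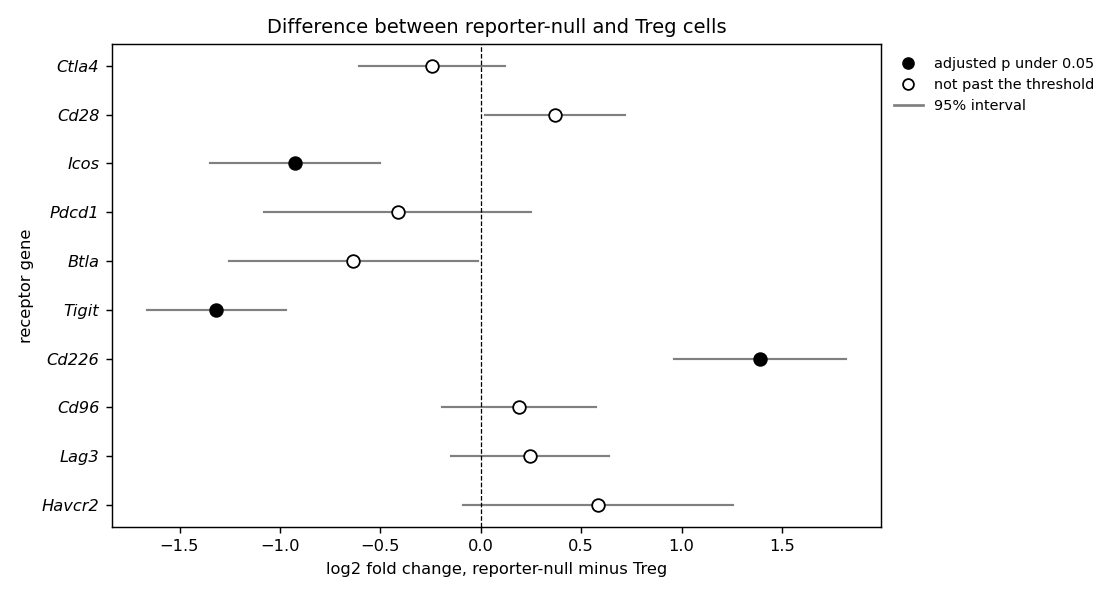
Log2 fold change of each receptor (horizontal axis, reporter-null minus Treg) with its 95% interval from the edgeR fit. Filled points passed an adjusted p of 0.05, which were Icos (-0.92), Tigit (-1.32) and Cd226 (1.39).

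To compare levels between genes, CPM was divided by the exon length in kilobases (GENCODE M21, union of basic transcripts), a length that may not be that of the authors' annotation. In reporter-null cells Ctla4 led at 1632 ± 151 CPM per kilobase (SD, n = 3), with Icos at 267 ± 43.1 and Cd28 at 241 ± 26.5 next. Tigit followed at 158 ± 24.4, Pdcd1 at 94.4 ± 25.8 and Cd96 at 67.1 ± 10.0 CPM per kilobase. Havcr2 (43.3), Lag3 (39.8), Cd226 (29.5) and Btla (8.21) closed the order in CPM per kilobase. Library ranges of neighbours in this order overlapped for Icos with Cd28, Pdcd1 with Cd96, Havcr2 with Lag3 and Lag3 with Cd226.

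In Treg cells Ctla4 also led, at 1932 ± 191 CPM per kilobase (SD, n = 2), followed by Icos at 507 ± 81.8 and Tigit at 395 ± 13.6. Cd28 came next at 186 ± 18.2, then Pdcd1 at 126 ± 33.3 and Cd96 at 58.8 ± 7.34 CPM per kilobase. Lag3 (33.6), Havcr2 (28.8), Btla (12.7) and Cd226 (11.3) were lowest in CPM per kilobase, and of the neighbours in this order Lag3 and Havcr2 alone overlapped. Tigit was thus above Cd28 in Treg cells and below it in reporter-null cells, and Cd226 was the lowest receptor in Treg cells but not in reporter-null cells. The 10 receptors together took 0.549% to 0.651% of the counts in reporter-null libraries and 0.662% and 0.802% in Treg libraries.

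The libraries of the groups did not overlap for 6 of the 10 receptors, against 40.8% of all genes tested. The receptors also varied with the libraries that stand apart. For 9 of the 10, Lag3 being the exception, reporter-null replicate 2 differed from the mean of its group's other libraries in the same direction as Treg replicate 1 from Treg replicate 2, and 55.3% of all genes tested did so. Reporter-null replicate 2 was also the library nearest to the Treg mean for 7 receptors, among them Tigit, Icos, Cd226 and Ctla4. Without reporter-null replicate 2 the log2 fold changes of Tigit (-1.46), Icos (-1.08) and Cd226 (1.48) were each the widest or as wide as any with 1 library left out. Without both reporter-null replicate 2 and Treg replicate 1 they were -1.41, -0.88 and 1.46. That choice was made after seeing the data and leaves a lone Treg library, so its spread comes from reporter-null libraries only. What part the epithelial, heat shock and immediate early transcripts of those libraries play in these values was not tested.

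**Figure D4:**
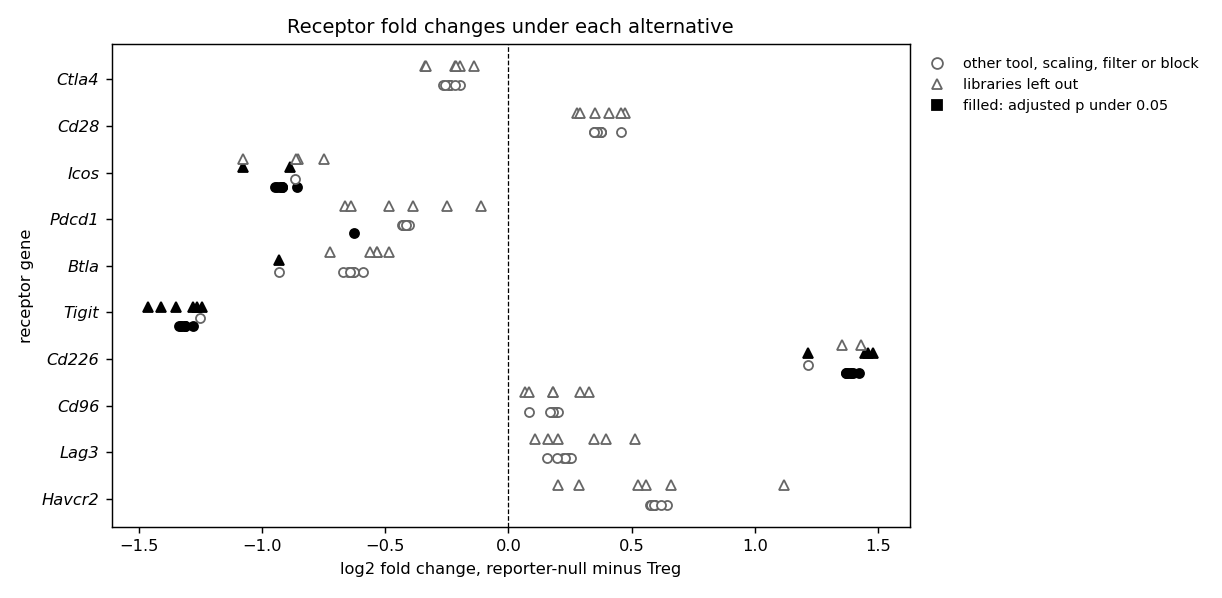
Log2 fold change of each receptor (horizontal axis, reporter-null minus Treg) under 14 alternatives, circles for another tool, scaling, filter or block and triangles for libraries left out; filled symbols have an adjusted p under 0.05 and are set just below the open ones of the same shape. The 10 receptors keep their side of 0 throughout, and Tigit is filled in 13 of the 14.

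Among the receptors' 16 ligand genes, 3 fell and 1 rose (median log2 fold change -0.045, against 0.018 over all genes tested). By the same rule, which also holds for the lists below, 4.72% of all genes tested were called lower and 4.07% higher. The ligand Cd86 rose to 66.9 ± 9.88 CPM in reporter-null cells (n = 3), against 25.2 ± 0.213 CPM in Treg cells (n = 2; log2 fold change 1.41, SE 0.158, adjusted p = 0.0034). Its partner Cd80, the other ligand of CD28 and CTLA-4, fell to 13.9 ± 3.44 CPM in reporter-null cells, against 37.8 ± 3.04 CPM in Treg cells (-1.44, adjusted p = 0.0126). The PD-1 ligands fell, Pdcd1lg2 with a log2 fold change of -1.71 (adjusted p = 0.00861) and Cd274 with -0.95 (adjusted p = 0.0254). Pvr, which encodes CD155, stood at 17.6 ± 0.950 CPM in reporter-null cells and 28.2 ± 4.72 CPM in Treg cells and was not called (adjusted p = 0.0536). Cd80 lost its call without Treg replicate 1 (0.117) or Treg replicate 2 (0.0782), and Cd86 without Treg replicate 1 (0.0512). Pdcd1lg2 lost it without either Treg library (0.0814 and 0.0851) or reporter-null replicate 1 (0.0532), and Cd274 with each library left out other than reporter-null replicate 2 (0.072 to 0.204).

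Counts by 2 other rules are given for lists in which a direction had no call. Of all genes tested, 11.6% were higher and 11% lower by edgeR at an unadjusted p under 0.05, and DESeq2 called 8.47% higher and 7.93% lower. Of 14 tested genes for other inhibitory receptors, 2 fell and none rose (median -0.38). By edgeR at an unadjusted p under 0.05, 5 were lower and 0 higher, and DESeq2 called 4 lower and 0 higher. Cd101, an immunoglobulin-like inhibitory receptor, fell to 18.9 ± 1.26 CPM in reporter-null cells, against 59.8 ± 7.13 CPM in Treg cells (-1.66, SE 0.140, adjusted p = 0.00123). Cd160, a further receptor for HVEM, fell to 2.01 ± 0.495 CPM in reporter-null cells, against 11.5 ± 3.50 CPM in Treg cells (-2.52, adjusted p = 0.00798). That call needed Treg replicate 2 (0.0958 without it). Vsir, which encodes VISTA, was at 307 CPM on average in both groups.

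Genes that carry the receptors' signals changed in part. Of 19 genes of CD28 and ICOS signalling, 1 rose and 3 fell (median 0.038), against 4.07% higher and 4.72% lower among all genes tested. The PI3-kinase catalytic subunit gene Pik3cd rose (0.76, adjusted p = 0.0156), while the regulatory subunit gene Pik3r1 (-0.53, adjusted p = 0.0284), the adaptor gene Grb2 (-0.58, adjusted p = 0.0209) and the CD28 adaptor gene Carmil2 (-0.48, adjusted p = 0.0486) fell. None of the 4 passed with Treg replicate 1 left out (0.146 to 0.202), with Treg replicate 2 (0.0718 to 0.248) or with reporter-null replicate 1 (0.0828 to 0.198), and Carmil2 lost its call also without reporter-null replicate 3 (0.0663).

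Of 16 genes listed for inhibitory signalling, 3 fell and none rose (median -0.145). The list does not part genes that pass on such signals from genes that oppose them, so the count gives no direction of signalling. By edgeR at an unadjusted p under 0.05, 6 were lower and 0 higher, and DESeq2 called 5 lower and 0 higher. Sh2d1a, the adaptor SAP of SLAM receptors, fell to 29.9 ± 3.07 CPM in reporter-null cells, against 112 ± 5.82 CPM in Treg cells (-1.90, SE 0.127, adjusted p = 0.000626). Dgka, a kinase that removes diacylglycerol, fell (-1.14, adjusted p = 0.0015), as did Csk, which restrains Lck (-0.84, adjusted p = 0.00818, lost without Treg replicate 1 at 0.0933 and reporter-null replicate 1 at 0.0551). The phosphatase genes Ptpn6 (0.30) and Ptpn11 (0.20), which PD-1 and BTLA recruit, were not called.

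Of 10 genes of CTLA-4 trafficking, 2 fell and none rose (median -0.166). By edgeR at an unadjusted p under 0.05, 3 were lower and 2 higher, and DESeq2 called 3 lower and 0 higher. Trat1, an adaptor that carries CTLA-4 to the surface, fell to 6.45 ± 0.338 CPM in reporter-null cells, against 70.1 ± 14.8 CPM in Treg cells (-3.44, SE 0.175, adjusted p = 0.000244). Lax1, a transmembrane adaptor, fell (-0.56, adjusted p = 0.0261), a call that needed both Treg libraries (0.165 without replicate 1, 0.12 without replicate 2) and reporter-null replicate 1 (0.0925 without it). Lrba, which protects CTLA-4 from degradation, stood at 170.2 ± 27.7 CPM in reporter-null cells and 256 ± 2.36 CPM in Treg cells and was not called (-0.59, adjusted p = 0.0611).

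Among 20 genes for transcription factors that act on these receptors, 5 rose and 2 fell (median 0.166). Over all genes tested, 4.07% were called higher and 4.72% lower. Bcl6, the repressor of follicular T cells, fell (-1.38, adjusted p = 0.00416), and Id2 (0.90, adjusted p = 0.0126), Nfatc3 (0.68, adjusted p = 0.015) and Tcf7 (0.76, adjusted p = 0.0176) rose. Nfatc1 and Prdm1 rose and Foxo1 fell as well. Bcl6 lost its call without Treg replicate 1 (0.0536). The other 6 lost it without Treg replicate 1 (0.0816 to 0.267) and without reporter-null replicate 1 (0.0592 to 0.2), and 5 of them, all but Prdm1, without Treg replicate 2 (0.0764 to 0.24). Prdm1 (0.0814) and Foxo1 (0.074) also lost it without reporter-null replicate 3. Over all 6 lists, 4 of 22 called genes passed with each library left out in turn, namely Trat1, Sh2d1a, Dgka and Cd101.

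**Figure D5:**
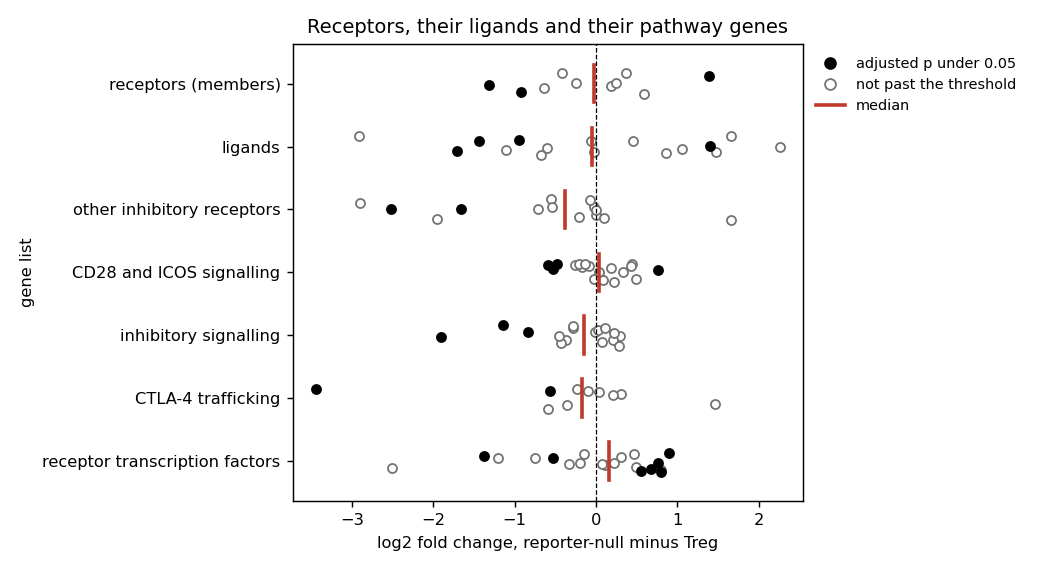
Log2 fold change (horizontal axis, reporter-null minus Treg) of the 10 receptors and of the tested genes of 6 pathway lists, with filled points for an adjusted p under 0.05 and a line at each median. List medians lie between -0.38 and 0.166, and called genes appear on both sides of 0 in the receptors, the ligands, CD28 and ICOS signalling and the transcription factors.

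The genes whose pattern over the 5 libraries was most like that of Tigit were Eno3, Cd320 and Socs3, with a root mean square difference of 0.0489, 0.0552 and 0.0692 in gene-centred log2 CPM. For Ctla4 they were Zc3hav1, Ptpre and Ndufa9, at 0.0136, 0.0242 and 0.0317 on the same scale.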

How the data were processed

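The deposited file is a table of raw read counts, whole numbers per gene symbol, for 5 libraries; the values sum to a different total in each. Per the labels' protocols, RNA extracted with TRIzol was amplified (SMART-Seq v4) and sequenced as paired reads on a HiSeq after KAPA Hyper Prep library construction. The submitters' processing notes list DESeq without saying its role. Aligner, build, annotation and strand setting: not given in the sources used here. Reads of overlapping or antisense genes therefore cannot be told apart. Reads carried no molecular identifiers.

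Of 24421 rows, 4 named NA (at most 0.00492% of a library's counts) were left out. In R 4.3.3, filterByExpr (minimum count 10, minimum total 15) kept 14164 genes, which were TMM-scaled and tested with robust edgeR 4.0.16 quasi-likelihood F tests. The common biological coefficient of variation was 0.401. No replicate pair agreed within sampling noise (chi-square 16.9 to 73.8 per degree of freedom). Steps were run on simulated counts with 200 changed genes. All genes were drawn at the common coefficient of variation, with no library set apart. The simulation therefore does not test the steps under the spread of these libraries. Ratios used raw counts.

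Receptors and lists were chosen with earlier results of these data known. Named were the receptors, Foxp3, Thy1, up to 4 called genes with the smallest p per list, others to describe a count, and the 3 genes most like Tigit and Ctla4. Cd244a was read as Cd244. Alternatives were DESeq2 1.42.0, limma-voom (limma 3.58.1), scaling by RLE or by upper quartiles, no filter, CPM of at least 1 in 2 libraries, an adjusted p of 0.01, replicate blocks and libraries left out.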

Additional observations from a re-analysis of the deposited data

How the results depend on the processing

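All 10 receptors and the 4 ratios kept their direction under every alternative run. With 1 library left out, genes called numbered 341 to 2035 (1245 with all), receptors called 1 to 3 (3 with all), and genes called in the lists 0 to 6 (ligands), 1 to 4 (other inhibitory receptors), 0 to 4 (CD28 and ICOS signalling), 2 to 4 (inhibitory signalling), 1 to 3 (CTLA-4 trafficking) and 0 to 9 (transcription factors). A fit without a Treg library assumes that the lone Treg library varies like the others. Receptor log2 fold changes then ran from -1.08 to -0.75 (Icos), -0.93 to -0.49 (Btla), -1.46 to -1.24 (Tigit), 1.22 to 1.48 (Cd226), -0.66 to -0.11 (Pdcd1), -0.34 to -0.14 (Ctla4), 0.28 to 0.47 (Cd28), 0.069 to 0.33 (Cd96), 0.11 to 0.40 (Lag3) and 0.20 to 1.12 (Havcr2). With Treg replicate 1 and reporter-null replicate 2 left out together, an alternative chosen after seeing the data, 2152 genes, 3 receptors, 9 ligands and 4 other inhibitory receptors were called. At an adjusted p of 0.01, 489 genes were called, and Icos (-0.92) was not. DESeq2 called 2323 genes, 7 ligands, 4 other inhibitory receptors and 5 genes of inhibitory signalling.

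With the replicate block by title number, 24 genes, 0 receptors and 0 genes of each of the 6 lists were called, and Icos (-0.87, adjusted p = 0.229), Tigit (-1.25, 0.0861) and Cd226 (1.22, 0.0694) missed the threshold. In that edgeR fit, 4 receptors and 34 of 94 list genes had an unadjusted p under 0.05, against 17.9% of all genes tested. That fit leaves a single residual degree of freedom, and so does the fit with the block by description number. Libraries with the same title number deviated from their group means in opposite directions (correlations of -0.511 and -0.602 over genes). For libraries of the same description number the correlations were 0.602 and 0.481. With only 2 Treg libraries, the deviations of Treg replicate 1 mirror those of replicate 2. The values -0.602 and 0.602 are therefore the same value with its sign turned, not separate evidence. With the replicate block by description number, 1399 genes were called, with 4 receptors, Pdcd1 (-0.63, adjusted p = 0.0444) being added. Called in the lists were 7 ligands, 4 other inhibitory receptors, 1 gene of CD28 and ICOS signalling and 1 of CTLA-4 trafficking. The labels do not say that either number marks a shared animal, and these correlations cannot decide it. The cause of these differences was not tested.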
